A study of Mus musculus with 8 samples.

Results

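H3K4me3, a histone mark that lies mainly at the promoters of active genes, is described here at 7 cholesterol synthesis genes, Hmgcs1, Mvd, Idi1, Fdft1, Sqle, Lss and Dhcr7. The members are all peaks that the deposited H3K4me3 table lists under these gene names, which came to 7 peaks of 6 genes out of 35486 peaks of 20871 genes. No peak carries the name of Mvd.

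Cholesterol is built from acetyl-CoA through mevalonate, the isoprenoid phosphates, squalene and lanosterol, and the enzymes of this route are commonly controlled together at the level of transcription by the sterol-sensing factor SREBP2. The intermediates also feed coenzyme Q and protein prenylation, and 7-dehydrocholesterol, the substrate of Dhcr7, is known as a lipid antioxidant, which ties the route to ferroptosis, the death by lipid peroxidation that the glutathione peroxidase GPX4 prevents.

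The mark was profiled by CUT&Tag, in which an enzyme tethered to an antibody cuts out the chromatin around a histone mark, in CD45-CD31-EpCAM+ tumor cells sorted from mouse lungs. KL tumors (an autochthonous lung tumor model that carries Lkb1fl/fl and a Cre-activated oncogene allele, replicates 1 and 2) were compared with KLG4m/m tumors (the same alleles and Gpx4m/m, replicates 3 and 4). Mice of both groups received intranasal Ad-Cre, a virus that delivers Cre recombinase and starts the tumors, and tamoxifen, and were sampled 10 weeks after Ad-Cre, so the tumor-starting alleles and both treatments are shared. In Gpx4m/m cells, Cre permits expression of the tamoxifen-dependent recombinase DreERT2 from the Gpx4 locus, which then deletes rox-flanked Gpx4 sequence, so deletion is limited to cells that met both agents. The study describes the libraries of a group as coming from different mice. The labels do not tie each library to a mouse by name, and the sample protocol gives a total number of mice that differs from the number of libraries, so the p-values measure the spread between these libraries. H3K27ac libraries were not analysed here.

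The 4 libraries held 3244495 to 3463731 reads in peaks. Counts differed little more than sampling noise within a group (chi-square per degree of freedom 1.13 in KL and 1.23 in KLG4m/m) and more between groups (2.37 to 2.80). The promoter peak of Gpx4 lies at the start site and does not check the deletion. It held 242 and 236 reads in KL and 304 and 301 in KLG4m/m (log2 fold change 0.39, edgeR adjusted p = 0.00178 on reads summed per gene). Cell type markers also differed between the groups. The summed H3K4me3 of the epithelial markers with a peak was 292 and 291 CPM (reads scaled to a common library total) in KL against 241 and 250 in KLG4m/m, and 2 of 6, Epcam (-0.82) and Cdh1 (-0.38), were lower in edgeR, beside 9.63% of all genes. Krt8 (-0.28), Nkx2-1 (-0.13), Krt18 (0.07) and Krt19 (0.11) did not pass. That of the leukocyte markers was 140 and 146 against 172 and 163 CPM, and 4 of 4 genes lay above 0 with 0 past the threshold in edgeR (2 at an unadjusted p under 0.05). Over all genes the median log2 fold change was 0.00. Of all peaks within 1 kb of a start site, 28.0% had an unadjusted p under 0.05 in edgeR. The 4 peaks of Csf1r changed by -0.48, -0.37, 0.57 and 0.42. The endothelial sum ranged from 103 to 122 CPM in KL and from 104 to 124 in KLG4m/m, and the fibroblast sum from 61.9 to 68.8 and from 62.9 to 66.0, with 0 of 3 and 0 of 2 genes past the threshold in edgeR (1 and 0 at an unadjusted p under 0.05). No marker with a peak was at 0 reads, and Sftpc, Cd79a and Col1a2 have no peak under their names. In such bulk libraries, fewer cells of a type and less of the mark per cell cannot be told apart, and the part of these differences in the results below was not tested.

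The 250 bases before the start site are given 5′ to 3′ for 3 members. For these, the length from RefSeq start to gene end on the mouse build GRCm38.p6 equals that of the deposited peak's transcript. The sequence under the peaks themselves was not read. Capitals mark matches, on either strand, to 3 motifs that cholesterol gene promoters commonly carry: the sterol regulatory element core TCACNCCAC, the NF-Y box CCAAT and the GC box GGGCGG. The Hmgcs1 sequence is chr13:119690101-119690350, that of Idi1 is chr13:8885356-8885605 and that of Dhcr7 is chr7:143829964-143830213, all on the plus strand.
Hmgcs1: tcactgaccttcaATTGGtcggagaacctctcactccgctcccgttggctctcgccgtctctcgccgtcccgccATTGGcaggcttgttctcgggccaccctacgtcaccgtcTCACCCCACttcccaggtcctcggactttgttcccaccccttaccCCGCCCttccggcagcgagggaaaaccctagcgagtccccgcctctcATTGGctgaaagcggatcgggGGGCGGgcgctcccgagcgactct
Idi1: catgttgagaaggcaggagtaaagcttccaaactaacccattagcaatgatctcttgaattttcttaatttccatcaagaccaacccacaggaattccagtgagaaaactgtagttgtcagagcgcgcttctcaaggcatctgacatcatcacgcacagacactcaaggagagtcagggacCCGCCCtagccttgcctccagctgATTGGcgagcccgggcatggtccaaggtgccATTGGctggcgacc
Dhcr7: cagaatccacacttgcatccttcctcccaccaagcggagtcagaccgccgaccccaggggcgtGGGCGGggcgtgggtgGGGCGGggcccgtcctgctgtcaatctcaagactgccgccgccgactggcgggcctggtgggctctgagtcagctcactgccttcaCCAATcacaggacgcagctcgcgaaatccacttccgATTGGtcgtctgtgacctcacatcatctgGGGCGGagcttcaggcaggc

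The Hmgcs1 promoter held 1 match to the sterol regulatory element core, from 137 to 129 bases before the start. It was the single match among the 7 windows of 300 bases (250 before and 50 after a start) that RefSeq gives for 5 of the 7 members. Over all 32851 mouse promoter windows, 1.24% held this motif, 37.4% the NF-Y box and 35.7% the GC box. The Hmgcs1 window also held 4 NF-Y and 3 GC boxes, of which 1 each lie after the start and are not printed. The Idi1 window held 2 NF-Y boxes and 1 GC box, the printed Dhcr7 promoter 2 and 3, the Lss window 1 and 2, and the Mvd window 2 and 1. All 5 of these members therefore had both boxes in at least 1 window, and the matches to different motifs did not overlap in the printed sequences. The share of all windows with both boxes was not computed. The other 2 Dhcr7 windows, at start sites farther upstream, held no NF-Y box, and 1 of them held a GC box. Their GC contents were 58.3% and 48.7%. In the other windows the GC content ran from 52.3% (Idi1) to 71.0% (Lss), beside a median of 52.7% over all windows. A match is a description of letters and not a binding site, and a window without a match lacks only these letters.

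The members' promoters carried much H3K4me3. The 6 peaks within 1 kb of a start site, each 400 bp wide, had mean levels from 62.1 to 132 CPM, beside a median of 41.2 CPM over the 17073 listed peaks at that distance. They stood between the 69.3rd and the 99.2nd percentile of those peaks. In descending order of level they were Idi1, Dhcr7, Hmgcs1, Fdft1, Lss and Sqle. CPM values here are scaled by TMM, a normalization that aligns the bulk of the peaks between libraries, and since the member windows all have a width of 400 bp their levels can be set side by side. Positions are those of the deposited table. Its build is not given unambiguously in the sources used here, and its gene positions are not those of GRCm38, so they cannot be laid over the sequences above.

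**Figure D1:**
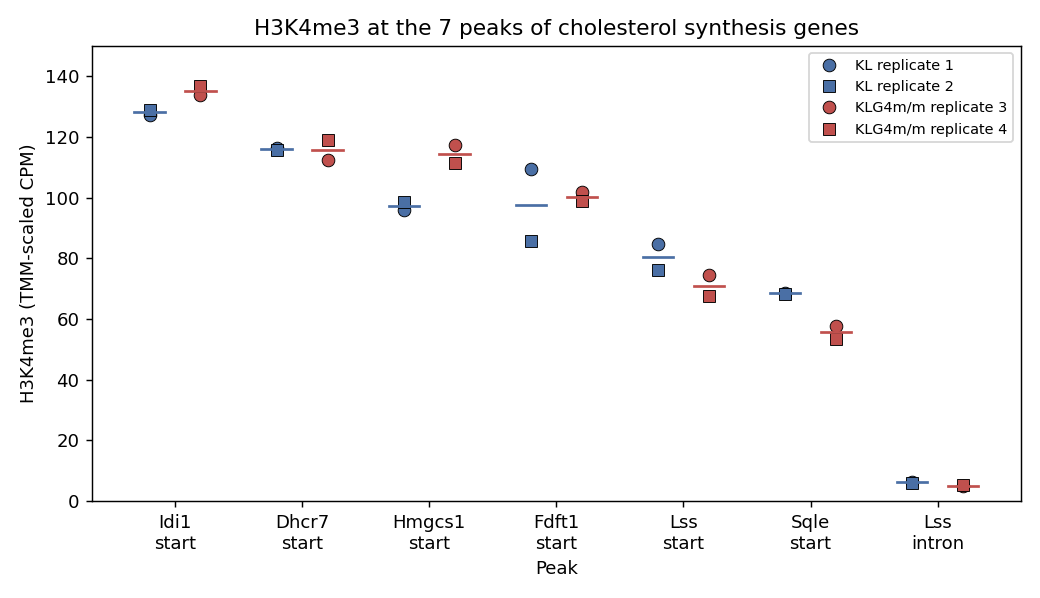
H3K4me3 in TMM-scaled CPM (y axis, from 0) at each of the 7 member peaks (x axis), with a point for each library and a short line for each group mean. The 2 KLG4m/m libraries sit above both KL libraries at Hmgcs1 and Idi1 and below them at both Lss peaks and at Sqle, and Fdft1 has its widest spread within KL.

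None of the 7 member peaks passed an adjusted p of 0.05 between KLG4m/m and KL tumor cells in edgeR's quasi-likelihood test over all peaks. The largest differences among the 6 promoter peaks were of opposite sign. Hmgcs1, of the steps before mevalonate, was 17.9% higher in KLG4m/m, and Sqle, a rate-limiting enzyme of the sterol steps, was 18.7% lower. At an unadjusted p under 0.05, these 2 were the members found, 1 in each direction, and DESeq2 and limma found 0 at either threshold. Over the whole table, 3.10% of peaks were called higher and 5.52% lower, and of the peaks within 1 kb of a start site 2.89% and 8.43%. At an unadjusted p under 0.05, 28.0% of the latter differed in either direction, beside 2 of the 6 member promoter peaks, so this share does not stand apart from the background. Likewise, both KLG4m/m libraries lay above both KL libraries at 2 of the 6 promoter peaks and below them at 2, beside 27.9% and 29.1% of all peaks within 1 kb. With 2 libraries a group, an exact permutation test of 1 peak cannot go below p = 0.333, and the p-values rest on a variance shared among peaks.

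Hmgcs1 encodes the cytosolic HMG-CoA synthase, which works ahead of mevalonate. Its promoter peak (chr13:120151829-120152229, at the start of NM_001291439.1) held 333 and 342 reads in KL and 405 and 360 in KLG4m/m. Both KLG4m/m libraries were higher, and the scaled levels were 97.2 ± 1.92 and 114 ± 4.23 CPM (SD, n = 2 each). The log2 fold change was 0.24 ± 0.08 (SE; 95% interval 0.06 to 0.41), and the edgeR adjusted p was 0.0779.

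Idi1, the isomerase that interconverts isopentenyl and dimethylallyl diphosphate, had the highest level of the members. Its promoter peak (chr13:8935642-8936042, NM_145360.2) held 442 and 448 reads in KL and 461 and 442 in KLG4m/m. The scaled levels, 127 and 129 against 134 and 137 CPM, did not overlap, but the difference was small (log2 fold change 0.08, 95% interval -0.08 to 0.24, edgeR adjusted p = 0.569) and turned to -0.02 under quantile normalization. The interval spans a fold of 0.946 to 1.18.

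Fdft1 is squalene synthase, which commits farnesyl diphosphate to sterols. Its peak (chr14:63415340-63415740, 4 bp before the start of NM_001360211.1) held 380 and 298 reads in KL and 351 and 319 in KLG4m/m. The KL libraries, at 109 and 85.8 CPM, enclosed both KLG4m/m libraries, at 102 and 98.8 CPM. The fold change was 0.04 on the log2 scale (95% interval -0.16 to 0.24, edgeR adjusted p = 0.848), and its sign turned without KL replicate 2 (-0.12).

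Sqle is squalene epoxidase, the oxygen-dependent step that follows squalene. Its promoter peak (chr15:59186805-59187205, NM_009270.3) held 239 and 237 reads in KL and 199 and 173 in KLG4m/m. Both KLG4m/m libraries were lower, at 57.7 and 53.6 CPM against 68.8 and 68.3 CPM. The log2 fold change was -0.30 ± 0.10 (SE; 95% interval -0.51 to -0.08), and the edgeR adjusted p was 0.0748.

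Lss, lanosterol synthase, closes the sterol rings and is the single member with 2 listed peaks. Its promoter peak (chr10:76367232-76367632) held 294 and 265 reads in KL and 257 and 218 in KLG4m/m. These are 84.6 and 76.3 against 74.5 and 67.5 CPM, and both KLG4m/m libraries were lower. The log2 fold change was -0.18 (95% interval -0.38 to 0.03, edgeR adjusted p = 0.271). The other peak (chr10:76378646-76379046) lies in intron 11 of 21 of XR_004936110.1 and held only 22 and 21 reads in KL and 17 and 17 in KLG4m/m. It changed by -0.28 on the log2 scale, with an interval of -0.95 to 0.39 (edgeR adjusted p = 0.637). A test of whether the peaks of Lss differ from each other in their change did not pass (edgeR's diffSpliceDGE, adjusted p = 0.987 for the intronic peak), beside 1.29% of peaks called in that test over all genes with several peaks.

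Dhcr7 reduces 7-dehydrocholesterol to cholesterol. Its peak (chr7:143383502-143383902, 49 bp before the start of NM_001382499.1, the start whose sequence is printed above) held 405 and 402 reads in KL and 388 and 384 in KLG4m/m. The libraries of the groups overlapped at 113 to 119 CPM. The log2 fold change was -0.01 (95% interval -0.17 to 0.16), a fold of 0.887 to 1.12, with an edgeR adjusted p = 0.974. RefSeq places another start of Dhcr7 head to head with Nadsyn1. Head to head here means starts on opposite strands within 1 kb of each other, whether or not the genes overlap. The promoter peak listed for Nadsyn1 held 400 and 424 reads in KL and 368 and 396 in KLG4m/m (log2 fold change -0.05, edgeR adjusted p = 0.761), and its reads cannot be divided between the genes.

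**Figure D2:**
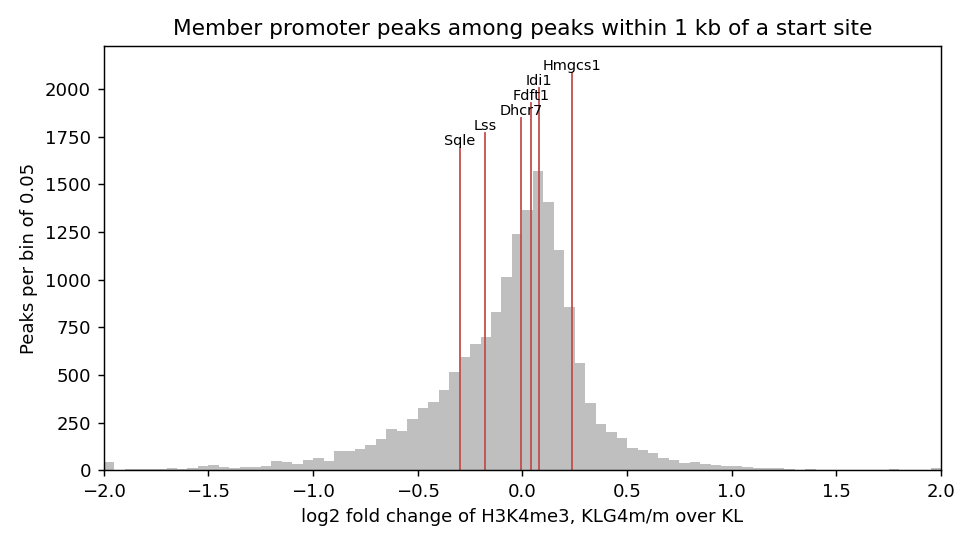
Distribution of the log2 fold change of H3K4me3 (x axis, KLG4m/m over KL) over the 17073 peaks within 1 kb of a start site (y axis, peaks per bin; the outermost bins also hold more extreme values), with a line for each of the 6 member promoter peaks. The members run from -0.30 (Sqle) to 0.24 (Hmgcs1), inside the range from -0.74 to 0.46 that holds the middle 90% of these peaks.

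Summing reads over each gene's peaks moved Hmgcs1 and Sqle across the threshold. Over 20871 genes, Hmgcs1 changed by 0.23 (edgeR adjusted p = 0.0460) and Sqle by -0.30 (adjusted p = 0.0464) on the log2 scale. Each of these genes has a single peak, so the reads were those given above and the test differed in the table it was fitted and adjusted over. The calls were 1 higher and 1 lower of 6 genes, beside 5.38% higher and 9.63% lower of all genes. Leaving out 1 of the 4 libraries gave log2 fold changes from 0.19 to 0.28 for Hmgcs1 and from -0.36 to -0.25 for Sqle. Such fits leave 1 library in a group, so they cannot tell whether a call would hold. DESeq2 and limma called 0 of the 6 genes (0 and 1 at an unadjusted p under 0.05). The other 4 genes did not pass, and the median of the 6 was 0.01 beside 0.00 over all genes.

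Hmgcs1 and Sqle can also be compared within a library, where the scaling between libraries plays no part. The Hmgcs1 peak held 1.39 and 1.44 reads for each read at Sqle in KL and 2.04 and 2.08 in KLG4m/m, and the groups did not overlap. The ratio of Idi1 to Sqle was 1.85 and 1.89 in KL against 2.32 and 2.55 in KLG4m/m. That of Dhcr7 to Sqle was 1.69 and 1.70 against 1.95 and 2.22, that of Fdft1 to Sqle 1.59 and 1.26 against 1.76 and 1.84, and that of Lss to Sqle 1.23 and 1.12 against 1.29 and 1.26. Over Lss, Hmgcs1 held 1.13 and 1.29 reads per read in KL and 1.58 and 1.65 in KLG4m/m. Its ratio went from 0.753 and 0.763 to 0.879 and 0.814 over Idi1, from 0.822 and 0.851 to 1.04 and 0.938 over Dhcr7, and from 0.876 and 1.15 to 1.15 and 1.13 over Fdft1, where the groups overlapped. Hmgcs1 and Sqle were chosen as the reference peaks after their values were seen, so these ratios are a description with no test.

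**Figure D3:**
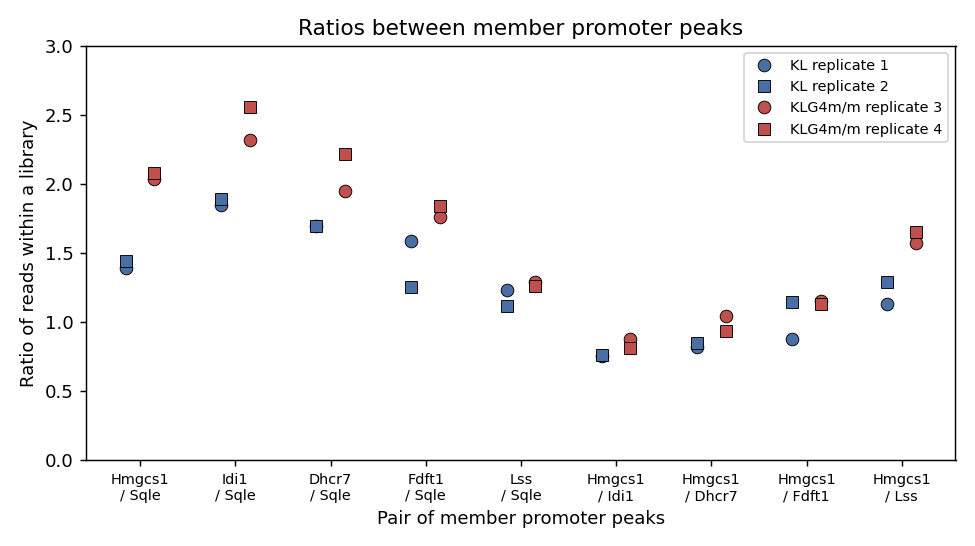
Ratio of reads between 2 member promoter peaks within each library (y axis, from 0) for 9 pairs (x axis), 1 point per library. The 2 KLG4m/m libraries lie above the 2 KL libraries for each pair but Hmgcs1 over Fdft1, where KL replicate 2, at 1.15, lies between them.

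Mvd, the decarboxylase that yields isopentenyl diphosphate, has its start within 1 kb of the start of another gene. By RefSeq on GRCm38, its start lies head to head with that of the noncoding gene 9330133O14Rik, under whose name the table lists a peak at the start site (chr8:123170080-123170480). This peak held 444 and 436 reads in KL and 432 and 480 in KLG4m/m, at 128, 126, 125 and 149 CPM. The log2 fold change was 0.11 (edgeR adjusted p = 0.448), and the libraries overlapped. Of 31 genes of the pathway examined here, 5 had no peak under their names, and each of the 5 had a head-to-head neighbour with a promoter peak, as did 1 of the 26 listed genes. The neighbours were Mmab for Mvk, Cetn2 for Nsdhl, 3110045C21Rik for Hsd17b7 and Arid4b for Ggps1, with log2 fold changes from 0.01 to 0.12, and none passed the threshold (edgeR adjusted p from 0.427 to 0.972, 0 at an unadjusted p under 0.05). For comparison, 8309 of all 21900 protein-coding genes had no peak under their names, and 971 of these had a head-to-head neighbour with a promoter peak. In the other direction, 37.2% of the genes with a head-to-head neighbour had no peak under their names, beside 37.9% of all. The neighbours of the pathway genes were looked up after the values were seen, and such a peak cannot be assigned to 1 of the 2 genes.

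The other enzymes of cholesterol synthesis showed no joint rise or fall. Of 12, 9 had a peak, 0 were called higher and 2 lower on summed reads, beside 5.38% and 9.63% of all genes, with a median log2 fold change of -0.01. In edgeR 0 were higher also at an unadjusted p under 0.05, and DESeq2 and limma called 0 in either direction. The members' gene-level values and these come from the same fit. In the mevalonate steps, Acat2, the thiolase that begins the route, changed by -0.04, Pmvk, phosphomevalonate kinase, by 0.03 and Fdps, farnesyl diphosphate synthase, by -0.08 (log2), with none past the threshold. In the sterol steps, Cyp51 (lanosterol demethylase, -0.01), Tm7sf2 (a sterol reductase, 0.05), Msmo1 (methyl sterol oxidase, 0.08) and Ebp (sterol isomerase, 0.12) did not pass either.

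The 2 genes called lower were Lbr and Sc5d, and both were lowest in KLG4m/m replicate 4. A fit without replicate 3 or 4 leaves 1 KLG4m/m library, so only its effect sizes are given. Sc5d, the desaturase that makes 7-dehydrocholesterol, the substrate of Dhcr7, held 195 and 201 reads in KL and 185 and 108 in KLG4m/m. On summed reads its log2 fold change was -0.38 (edgeR adjusted p = 0.0287). The same reads, all in a single peak, did not pass over all peaks (edgeR adjusted p = 0.0996). Without replicate 4 the Sc5d change on summed reads was -0.09 and without replicate 3 it was -0.78. Lbr, a sterol reductase and nuclear membrane protein, held 331 and 329 summed reads in KL and 296 and 201 in KLG4m/m (log2 fold change -0.36, edgeR adjusted p = 0.00615). Without replicate 4 it changed by -0.14 and without replicate 3 by -0.62. Its 2 peaks differed. The one at the start site held 256 and 261 reads in KL and 202 and 125 in KLG4m/m. That peak passed over all peaks (log2 fold change -0.60, edgeR adjusted p = 0.0038). The other, 559 bp downstream of the start of another transcript, changed by 0.31 and did not pass over all peaks (edgeR adjusted p = 0.266). It passed the test of a difference from the rest of the gene (diffSpliceDGE, adjusted p = 0.0399).

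**Figure D4:**
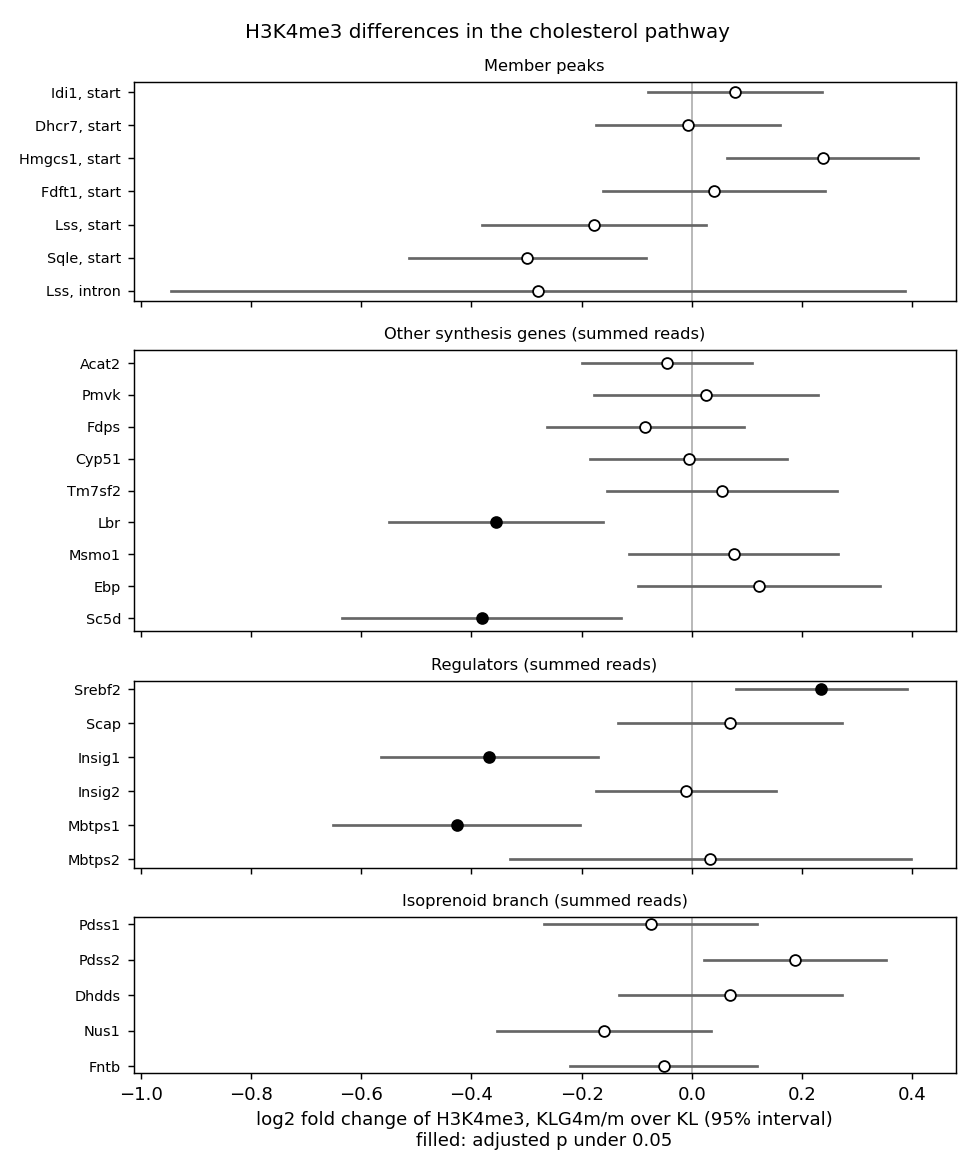
Log2 fold change of H3K4me3 (x axis, KLG4m/m over KL) with its 95% interval for the 7 member peaks and, on reads summed per gene, for the other synthesis genes, the regulators and the isoprenoid branch. Filled points passed an edgeR adjusted p of 0.05, which no member peak did, while Lbr, Sc5d, Insig1 and Mbtps1 passed below 0 and Srebf2 above 0.

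Among the 6 regulators of the pathway, 1 gene was called higher and 2 lower on summed reads in edgeR, beside 5.38% higher and 9.63% lower of all genes, and DESeq2, limma and quantile normalization called none of these 3 (adjusted p from 0.203 to 0.407). Srebf2, which encodes SREBP2, had 4 peaks with 398 and 419 summed reads in KL and 455 and 470 in KLG4m/m (log2 fold change 0.23, edgeR adjusted p = 0.0286). Its start-site peak taken singly changed by 0.29 and did not pass over all peaks (edgeR adjusted p = 0.0566). Another of the 4 lies in an intron of Ccdc134. Insig1, which retains the SREBP complex in the endoplasmic reticulum, held 308 and 320 reads against 276 and 193 (log2 fold change -0.37, edgeR adjusted p = 0.00529). Mbtps1, the site-1 protease that cleaves SREBP, held 227 and 260 against 202 and 147 (log2 fold change -0.43, edgeR adjusted p = 0.00409). Insig1 and Mbtps1 were again lowest in KLG4m/m replicate 4, without which they changed by -0.17 and -0.26. Without replicate 3 they changed by -0.60 and -0.63. Srebf2 changed by 0.17 without replicate 4 and by 0.30 without replicate 3. Scap, Insig2 and Mbtps2 did not pass on summed reads. Of their peaks taken singly, 1 passed, an intergenic peak listed for Insig2 that held 20 and 24 reads in KL and 8 and 9 in KLG4m/m (log2 fold change -1.30, edgeR adjusted p = 0.0367 over all peaks). In the isoprenoid branch, which leads to coenzyme Q, dolichol and prenylated proteins, 0 of 5 genes with a peak were called in edgeR (1, Pdss2 at 0.19, at an unadjusted p under 0.05).

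The genes whose H3K4me3 per peak was most like the members' median profile over the 4 libraries were Hexd, Rbm25 and Anapc16. Their root mean square differences from that profile were 0.03 on the log2 scale. The members' profile was 103, 91.9, 107 and 105 CPM in KL replicates 1 and 2 and KLG4m/m replicates 3 and 4, and that of Hexd was 106, 91.0, 105 and 105 CPM.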

How the data were processed

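Per the labels, H3K4me3 CUT&Tag libraries came from 2 KL and 2 KLG4m/m samples. The paper states 2 mice per group for these data, and the sample protocol 3 mice in total. The authors trimmed reads (Trim Galore 0.6.10), mapped them (BWA 0.7.15), removed mitochondrial reads, reads of mapping quality under 30 and duplicates (Picard 2.17.3), and called peaks (MACS2 2.2.7.1). HOMER 4.11.1 is named for gene assignment. The methods name Ensembl release 94, yet 1.59% of the listed transcripts shared a start or end with RefSeq genes of GRCm38. The deposited table holds counts, as whole reads per peak and library without normalization, and another column with the distance to the start site. It also holds the authors' normalized values and their comparison, which were not used.

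The members and gene lists were chosen with earlier results of these data known. Named genes were all members, all other synthesis enzymes, and, of the regulators and the isoprenoid branch, those past the threshold; others are named after their values were seen. Some genes and alleles that fall under these rules are not reported here. Counts were tested with edgeR 4.0.16 (quasi-likelihood, TMM, no filter, no covariate; R 4.3.3) over all peaks, or over genes with reads summed, at a Benjamini-Hochberg adjusted p of 0.05. The common dispersion was 0.00133. Alternatives were DESeq2 1.42.0, limma 3.58.1 on log2(CPM + 1), library totals, median centring, TMM on peaks within 1 kb, quantile normalization, a minimum of 10 CPM, a 1.5-fold requirement, the peak nearest the start, and leaving out each library. Promoter sequences came from RefSeq (GRCm38.p6) and were matched by symbol, 5 of 7 members. Of 20871 gene names, 19828 matched RefSeq. Counting error dominates peaks with few reads, such as the intronic Lss peak. Reads are scaled to peaks, so a change shared by all peaks would not be visible.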

Additional observations from a re-analysis of the deposited data

How the results depend on the processing

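No paired analysis was possible because KL holds replicates 1 and 2 and KLG4m/m replicates 3 and 4, so the groups share no number. Of the 7 member peaks, median centring called 1 higher (Hmgcs1, 0.29, adjusted p = 0.0302) and a minimum of 10 CPM called 1 lower (Sqle, -0.32, adjusted p = 0.0406), while every other alternative called 0. The 2 member genes called on summed reads were at the threshold. The count of genes higher fell from 1 to 0 with DESeq2, limma, library totals, quantile normalization, the peak nearest the start and the 1.5-fold requirement, where Hmgcs1 was 0.24, 0.22, 0.23, 0.18 and 0.24 in the first 5. The count lower fell from 1 to 0 with DESeq2, limma, median centring, TMM on peaks within 1 kb, quantile normalization, the peak nearest the start and the 1.5-fold requirement, where Sqle was -0.30, -0.31, -0.25, -0.30, -0.28 and -0.30 in the first 6. Leaving out 1 library gave Hmgcs1 from 0.19 to 0.28 and Sqle from -0.36 to -0.25. Such fits leave 1 library in a group, which is assumed to vary like the other group. The cause was not tested.

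Of the other synthesis genes, the 2 called lower became 0 with DESeq2, limma, quantile normalization and the 1.5-fold requirement, and 1 with the peak nearest the start. Leaving out 1 library gave Lbr from -0.62 to -0.14 and Sc5d from -0.78 to -0.09. The calls of Srebf2, Insig1, Mbtps1 and Gpx4 were also lost with DESeq2, limma and quantile normalization. Values near 0 changed sign. Quantile normalization gave -0.020 for the Idi1 peak and -0.013 for the Fdft1 peak. Median centring gave 0.043 for the Dhcr7 peak, 0.040 for the Dhcr7 gene, 0.0043 for Acat2 and 0.043 for Cyp51. Leaving out 1 library gave ranges of -0.12 to 0.22 for the Fdft1 peak, -0.12 to 0.23 for the Fdft1 gene, -0.043 to 0.030 for the Dhcr7 peak, -0.044 to 0.027 for the Dhcr7 gene, -0.12 to 0.049 for Acat2, -0.060 to 0.13 for Pmvk, -0.058 to 0.046 for Cyp51, -0.029 to 0.16 for Tm7sf2, and -0.22 to 0.021 for the difference between the Lss peaks. Hmgcs1 stayed above 0, and Sqle and both Lss peaks below 0, in all 12 alternatives run for each (10 for the intronic Lss peak). Over all peaks, edgeR called 1099 higher and 1960 lower, DESeq2 33 and 250, and limma 0 and 0.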
